A study of Homo sapiens with 12 samples.

Results

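Transcripts of the DNA replication machinery were followed in 2 human acute myeloid leukaemia cell lines, each with and without the FLT3 inhibitor AC220 (quizartinib). The 52 genes were taken by symbol from the table of raw counts, which holds 19504 rows with a symbol. They cover origin recognition, licensing, the replicative helicase, the firing kinases, the polymerases, the sliding clamp, fork protection and chromatin assembly, and are described here in 11 steps. All 52 passed the filter on low counts, as did 12392 genes in all.

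In MV4-11 the gene of FLT3, a receptor tyrosine kinase, holds an internal tandem duplication that keeps the receptor active, whereas OCI-AML3 carries mutated NPM1 and no such duplication. Each line stood under DMSO, the vehicle, or under 5 nM AC220 for 24 h, in RPMI-1640 medium with serum, with 3 libraries in each of the 4 groups. Each genotype is represented by 1 line, so that line and genotype cannot be told apart. The labels do not say that replicates came from separate cultures, and the p-values then reflect only how far these libraries differ, which can be technical.

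Libraries held 10877198 to 16918761 counts. They were 3' tag libraries, in which a transcript is read near its end, and levels are given as CPM, a library's counts of a gene relative to its total, scaled by the trimmed mean of M values (TMM). A CPM value is a share of a library, and fewer cells that replicate DNA cannot be told apart from less RNA per cell. All 8 myeloid markers were detected in every group (CD33 at 40.8 to 83.0 CPM and SPI1 at 39.9 to 52.4 CPM as group means). ITGAM was the lowest of them, and its OCI-AML3 means were only 0.419 CPM (DMSO) and 0.381 CPM (AC220). In the OCI-AML3 libraries 3 counts amount to 0.208 to 0.271 CPM, so ITGAM was barely detected there. CD3E, HBB, HBG1, EPCAM and KRT19, markers of lymphoid, erythroid and epithelial cells, had no counts in any library. COL1A2, a stromal marker, exceeded ITGAM in OCI-AML3, with means of 4.35 CPM (DMSO) and 6.89 CPM (AC220). The summed level of the 8 myeloid markers was 450 to 477 CPM in MV4-11 DMSO and 723 to 771 CPM in MV4-11 AC220, and 745 to 828 CPM in OCI-AML3, and its part in the changes was not tested. NKG7, listed with the lymphoid markers, had a mean of 12.1 CPM in MV4-11 DMSO and 25.5 CPM in MV4-11 AC220. MV4-11 AC220 replicate 1 differed most from the others of its group over all genes, with chi-square per degree of freedom of 9.55 and 10.7 against 4.19 between replicates 2 and 3. In OCI-AML3 replicate 3 differed most in both groups. The values were 6.6 and 6.53 against 2.77 under DMSO, and 8.52 and 6.98 against 4.37 under AC220.

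Replication begins when the origin recognition complex (ORC), with CDC6 and CDT1, loads the MCM2-7 helicase onto DNA in G1. The kinases CDK2-cyclin E and CDC7-DBF4 then let CDC45 and the GINS complex join MCM2-7, and polymerases, clamp and clamp loader assemble at the forks. Many of these genes are known targets of E2F transcription factors, which are held back by the retinoblastoma protein until growth signals activate cyclin-dependent kinases.

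Promoters are shown first because many of these genes are known E2F targets. The part of E2F sites in the changes was not tested. The set of RefSeq promoters used here (GRCh38.p14) covered 44 of the 52 genes. It lacked MCM4, MCM5, CCNE2, CDK2, GINS4, POLD3, RPA2 and RPA3. The 250 bases before the gene start were searched on both strands for 4 forms of the E2F consensus, TTTCCCGC, TTTCGCGC, TTTGCCGC and TTTGGCGC. At least 1 match stood in 12 of the 44 (27.3%), against 442 of 9877 promoters of tested genes (4.48%) and 2.79% of all 27305 promoters in the table. Among 31 promoters of the further replication genes described below, 3 had a match (9.68%). The promoter of MCM6, a helicase subunit, had the most matches, 4 in 2 overlapping pairs, and GINS2 and RFC3 had 1 each. ORC4, the member that rose, was among the 32 with none. Capitals mark the matches in these promoters, which lie at chr2:135876444-135876693, strand - (MCM6), chr16:85688955-85689204, strand - (GINS2), chr13:33817899-33818148, strand + (RFC3) and chr2:148021552-148021801, strand - (ORC4).
MCM6: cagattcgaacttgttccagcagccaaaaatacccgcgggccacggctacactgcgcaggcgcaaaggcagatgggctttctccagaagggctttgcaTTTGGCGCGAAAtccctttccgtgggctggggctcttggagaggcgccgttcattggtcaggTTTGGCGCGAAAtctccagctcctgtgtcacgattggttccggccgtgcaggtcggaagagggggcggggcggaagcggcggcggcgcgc
GINS2: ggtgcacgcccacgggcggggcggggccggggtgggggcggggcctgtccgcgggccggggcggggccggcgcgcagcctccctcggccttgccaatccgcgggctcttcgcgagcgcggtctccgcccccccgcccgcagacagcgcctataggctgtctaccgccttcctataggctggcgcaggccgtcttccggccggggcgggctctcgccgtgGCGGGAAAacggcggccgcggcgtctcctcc
RFC3: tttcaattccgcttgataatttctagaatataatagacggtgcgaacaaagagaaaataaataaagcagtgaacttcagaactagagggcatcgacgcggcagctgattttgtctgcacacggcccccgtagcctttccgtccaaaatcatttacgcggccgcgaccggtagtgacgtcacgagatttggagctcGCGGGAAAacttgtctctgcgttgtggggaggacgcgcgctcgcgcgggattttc
ORC4: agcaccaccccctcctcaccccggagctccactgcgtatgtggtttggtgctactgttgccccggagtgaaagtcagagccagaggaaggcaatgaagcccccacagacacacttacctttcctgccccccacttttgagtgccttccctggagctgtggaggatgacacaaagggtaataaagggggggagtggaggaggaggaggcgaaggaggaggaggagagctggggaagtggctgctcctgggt

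The other promoters with a match were those of ORC3, CDT1, MCM3, MCM7, POLA1, POLA2, POLE, PCNA and LIG1. The median log2 fold change in MV4-11 was -2.12 over the 12 genes with a match (-3.09 to -0.94) and -1.59 over the 32 without one (-4.15 to 0.47), so the ranges overlapped. CDC45 and CDC6, the members with the largest falls, were among those without a match. Another element, CCAAT, stood in 24 of the 44 (54.5%), against 35.0% of tested genes and 58.1% of the 31 promoters of further replication genes. The CHR element of mitotic genes, TTTGAA, stood in none of the 44, in 8.56% of tested genes and in 12.9% of those 31. A match is a description of letters, not a site shown to be bound.

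**Figure D1:**
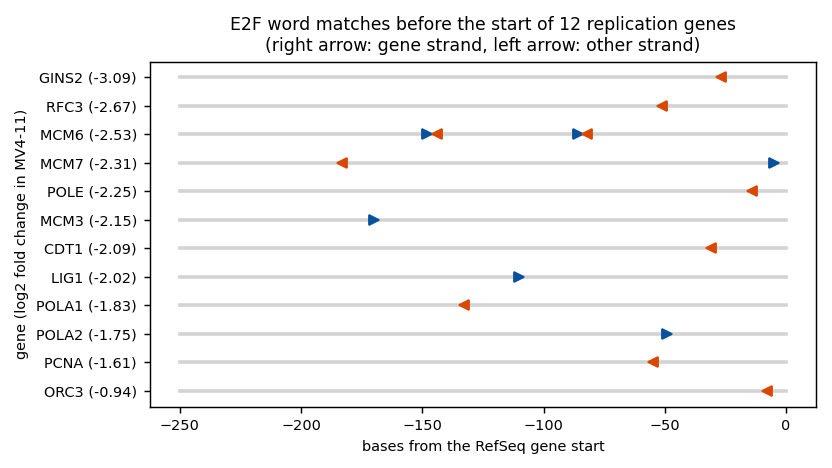
Positions of E2F matches (arrows, pointing right for the gene's strand and left for the other) in the 250 bases before the RefSeq start of the 12 members with a match; the x axis gives bases from the start and gene names carry the log2 fold change in MV4-11. MCM6 has 2 pairs of overlapping matches, and the matches lie between 183 bases before the start (MCM7) and 5 bases before it (MCM7).

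Nearly the whole machinery stood lower under AC220 in MV4-11. The summed level of the 52 genes was 3715, 3553 and 3602 CPM in the DMSO libraries and 1065, 1075 and 1027 CPM in the AC220 libraries. Of the 52 genes 49 fell and 1 rose at a Benjamini-Hochberg adjusted p under 0.05 in the quasi-likelihood test of edgeR, where 26.9% of the 12392 tested genes fell and 31.5% rose. A fall of at least 2-fold was called for 39 members, against 8.74% of tested genes. The median log2 fold change was -1.80 over the members and 0.07 over all tested genes. The DMSO and AC220 libraries did not overlap for 47 falling members (90.4%), against 28.9% of tested genes. The 4 members that did overlap were ORC2, ORC5, CCNE2 and RPA2. The genes were chosen with earlier results of these data known, so the counts describe them.

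In OCI-AML3 the summed level of the 52 genes was 4672, 4526 and 4405 CPM under DMSO and 4575, 4498 and 4545 CPM under AC220, and the groups overlapped. The same test called 1 member higher (3.44% of tested genes) and 0 lower (0.508%). Over all genes 87.1% of the calls were higher, or 74.2% with median-ratio size factors. At an unadjusted p under 0.05 there were 12 higher and 3 lower, against 13.2% and 7.59% of tested genes. DESeq2 called 3 higher and 0 lower (5.6% and 2.17% of the genes it tested), and limma-voom 4 and 0 (5.05% and 0.815%). The median log2 fold change was 0.05, with 31 members above 0 and 21 below. For 45 of the 52 the 95% interval of the fold change lay within 1.5-fold either way. The other 7 were ORC3, ORC6, CCNE2, CDC7, POLE2, PCNA and TIPIN. The AC220 libraries lay wholly above the DMSO libraries for 11 members (21.2%, against 14.2% of tested genes) and wholly below for 3 (5.77%, against 9.72%).

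Single libraries moved the small count in OCI-AML3. It was 6 higher and 1 lower without OCI-AML3 AC220 replicate 1, 5 and 1 without MV4-11 AC220 replicate 1, 3 and 2 without OCI-AML3 DMSO replicate 3, and 3 and 0 without MV4-11 AC220 replicate 3. No member was called when the first or second OCI-AML3 DMSO library or the third OCI-AML3 AC220 library was left out. The members gained in 1 or more of these fits were ORC6, MCM2, CCNE2, POLE2 and PCNA as higher and MCM5, MCM7 and POLD2 as lower.

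The difference between the 2 responses was tested directly, as the AC220 contrast of MV4-11 minus that of OCI-AML3. It was below 0 for 49 members and above 0 for ORC4, against 23.7% and 23% of tested genes. ORC2 and RPA2 did not pass.

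**Figure D2:**
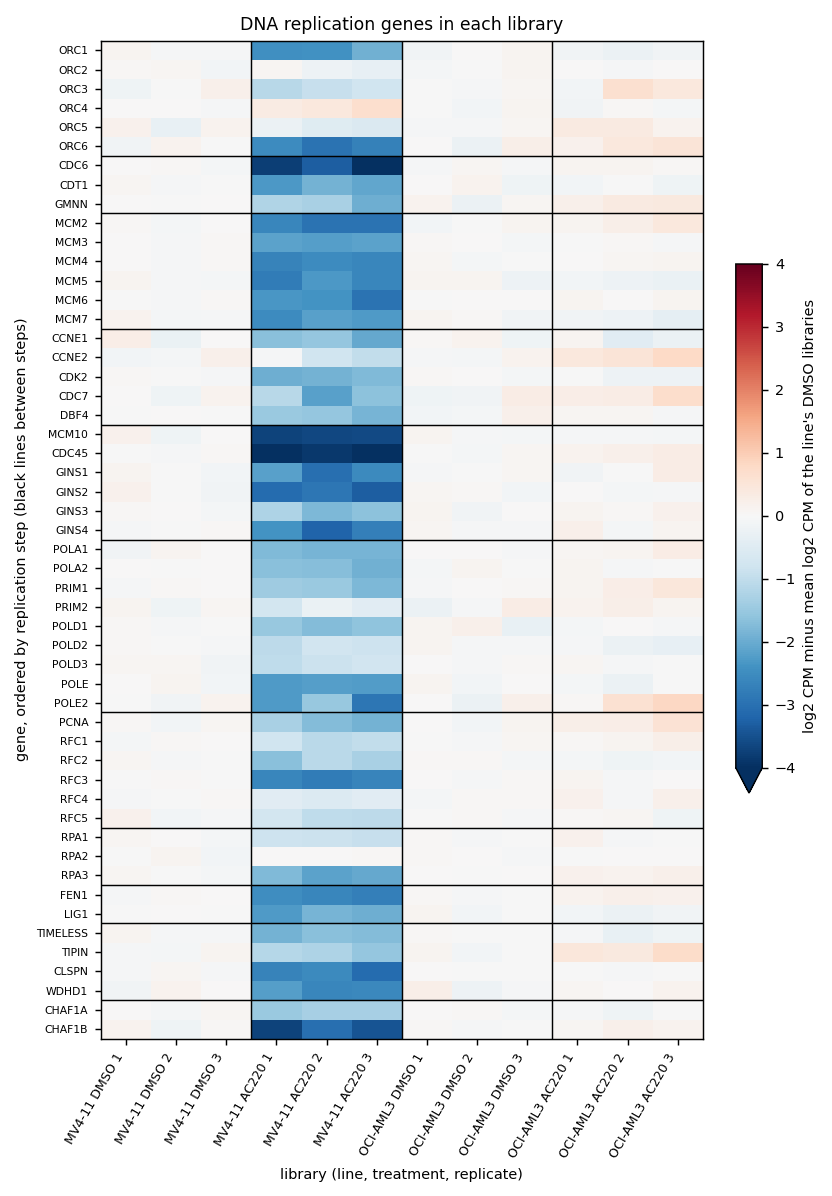
Log2 CPM of the 52 genes (rows, by step) in the 12 libraries (columns), each minus the mean log2 CPM of the same line's DMSO libraries, with blue for lower and red for higher values. The 3 MV4-11 AC220 columns are blue in nearly all rows, with ORC4, ORC2 and RPA2 as exceptions, while the OCI-AML3 AC220 columns run from -0.45 (CCNE1) to 0.84 (POLE2).

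The origin recognition complex marks origins on DNA and held the one member that rose, with a median log2 fold change of -0.69 in MV4-11. ORC6, its smallest subunit, stood at 22.9, 28 and 25.1 CPM under DMSO and at 4.41, 3.26 and 3.9 CPM under AC220. The groups lay apart, a 6.5-fold fall (log2 fold change -2.70, SE 0.158, adjusted p = 6.13e-15). ORC1, which is known to be periodic in the cell cycle, fell by 2.25 on the log2 scale, from 21.9 ± 1.48 to 4.62 ± 1.04 CPM (SD, n = 3 per group).

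The remaining core subunits moved less. ORC3 (-0.94) and ORC5 (-0.43) fell. ORC2 stood at 17.3, 17.8 and 15.4 CPM under DMSO and 17.7, 14.7 and 13.4 CPM under AC220, with overlapping libraries (log2 fold change -0.14, 95% interval -0.41 to 0.14, adjusted p = 0.34). ORC4 rose, from 15, 14.9 and 14.4 CPM to 18.5, 20.01 and 23.3 CPM, and every AC220 library lay above every DMSO library (log2 fold change 0.47, SE 0.118, adjusted p = 0.00106). The annotation (GENCODE 29) places an exon of ACVR2A on the other strand within 500 bases of the 3' end of ORC4. ACVR2A itself stood at 1.48 to 3.18 CPM in the MV4-11 libraries, and did not pass the test (log2 fold change 0.38, adjusted p = 0.433). The annotation was used for gene neighbours only, since the counts were made on another build (hg19).

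In OCI-AML3 no ORC gene was called under AC220. ORC6 stood at 31.3, 26.1 and 36.1 CPM and 34.8, 41.2 and 44.5 CPM under AC220 (log2 fold change 0.37, adjusted p = 0.0666), with overlap between the groups. ORC4 stood at 17.6, 16.5 and 19.2 CPM and 16.1, 18.4 and 16.9 CPM. The ratio of ORC6 to ORC4 counts within a library, which no scaling affects, went from 1.52 to 1.87 under DMSO to 0.163 to 0.239 under AC220. In OCI-AML3 it was 1.58 to 1.89 under DMSO and 2.16 to 2.63 under AC220. This pair and the other pairs whose ratios are given were chosen after their values were seen.

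Licensing factors load the helicase. CDC6, an ATPase of this step, stood at 35.4, 36.5 and 33.6 CPM in MV4-11 DMSO and at 2.58, 3.54 and 2 CPM in MV4-11 AC220, 13-fold lower (log2 fold change -3.70, SE 0.137, adjusted p = 1.18e-19). In OCI-AML3 it held at 49.9, 54.4 and 49.1 CPM and 55.3, 55.3 and 52.8 CPM, with overlap. CDT1, which brings MCM2-7 to the origin, fell by 2.09 in MV4-11. Geminin (GMNN), the inhibitor of CDT1, fell by 1.44, from 35.3, 34.5 and 35.3 CPM to 15.2, 14.2 and 9.08 CPM. The count ratio of CDT1 to GMNN was 5.83 to 6.26 under DMSO and 2.79 to 5.52 under AC220 in MV4-11, wide in the latter group. In OCI-AML3 it was 3.86 to 5.88 under DMSO and 3.11 to 3.68 under AC220, also lower in every AC220 library. In OCI-AML3 GMNN stood at 42, 32.7 and 40.4 CPM and 43.8, 48.7 and 50.1 CPM, and all AC220 libraries were above all DMSO libraries without a call (log2 fold change 0.31, adjusted p = 0.121).

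MCM2 to MCM7 form the ring of the helicase, and all 6 fell within a narrow range in MV4-11. Their summed level went from 1313 ± 52.1 to 237 ± 13.3 CPM. MCM2 changed most, from 179, 166 and 176 CPM to 28.6, 22.4 and 22.5 CPM (log2 fold change -2.82, SE 0.0938, adjusted p = 8.02e-20). The smallest change, that of MCM3, was still 4.43-fold, from 173, 168 and 176 CPM to 39.4, 37.7 and 39.2 CPM (-2.15, SE 0.069). Between them lay MCM4 (-2.60), MCM5 (-2.56), MCM6 (-2.53) and MCM7 (-2.31).

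None of the 6 passed the test in OCI-AML3, where their sum was 1829 ± 94.7 CPM under DMSO and 1752 ± 25.6 CPM under AC220. MCM2 stood at 178, 192 and 207 CPM and 207, 228 and 255 CPM, and the highest DMSO library equalled the lowest AC220 library to 3 digits (log2 fold change 0.26, adjusted p = 0.0641). MCM7 leaned the other way (-0.23, adjusted p = 0.118). MCM3 was level, at 213, 208 and 194 CPM and 202, 211 and 197 CPM.

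**Figure D3:**
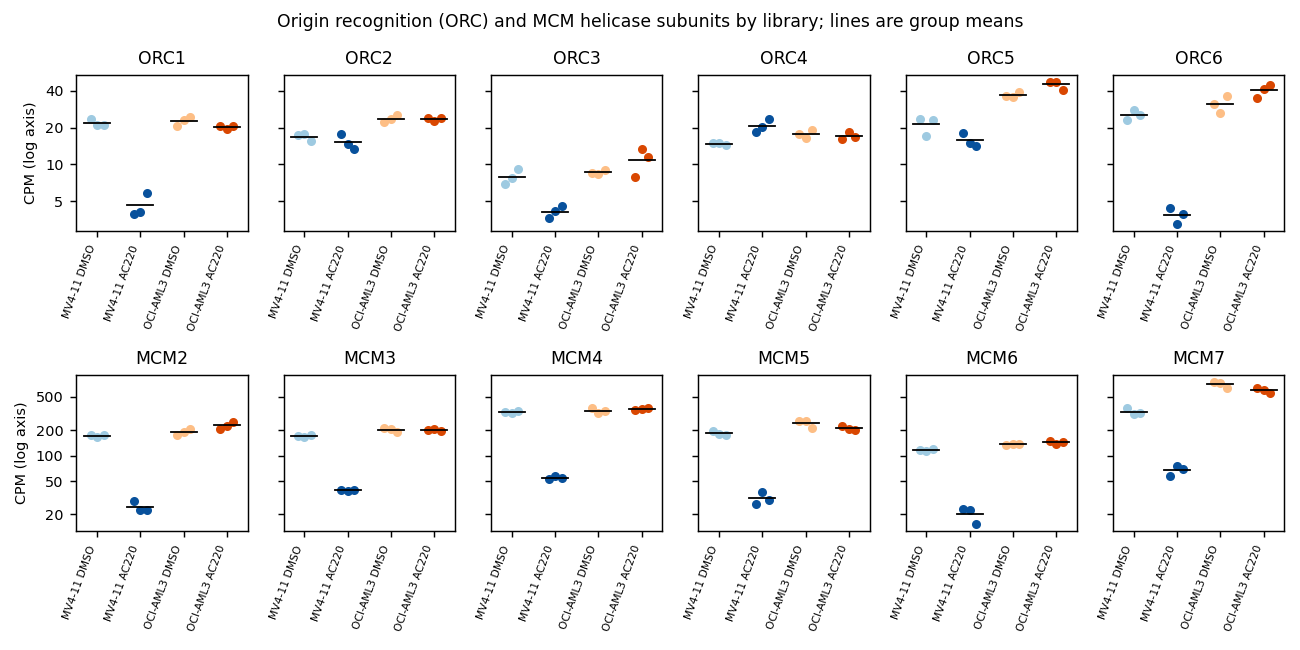
CPM (log axis) of the 6 ORC and 6 MCM2-7 subunits in each library, as points by group with a line at the group mean. All 6 MCM genes lie lower in MV4-11 AC220 than in the other 3 groups, while ORC1, ORC3 and ORC6 lie below all other groups there and ORC4 lies above its MV4-11 DMSO libraries.

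Kinases and cyclins trigger firing. CDK2 fell most in this step, from 129, 123 and 119.5 CPM to 31.6, 33.5 and 36.4 CPM in MV4-11 (log2 fold change -1.87, SE 0.0778, adjusted p = 1.78e-18). Its cyclin partner CCNE1 fell by 1.77, and CDC7 and its activator DBF4 by 1.56 and 1.61. CCNE2, the second cyclin E, stood at 16.4, 16.8 and 20.3 CPM under DMSO and 17.1, 10.2 and 8.9 CPM under AC220. Only AC220 replicate 1 reached the DMSO range, and the fall (-0.54, adjusted p = 0.0164) was lost without MV4-11 DMSO replicate 3 (adjusted p = 0.0667) or MV4-11 AC220 replicate 2 (0.0836), while without AC220 replicate 1 it was -0.90 (adjusted p = 5.47e-06).

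In OCI-AML3 CCNE2 stood at 19, 18.5 and 21.4 CPM under DMSO and 26.1, 27.9 and 34.2 CPM under AC220, with no overlap. That difference did not pass the test (0.58, adjusted p = 0.0583), but did by DESeq2 (0.0268) and limma-voom (0.0219) and in the 6 OCI-AML3 libraries alone (0.00597). With other scalings, the replicate block or the deposited normalised values CCNE2 was not called. An exon of INTS8 lies on the other strand at the 3' end of CCNE2. INTS8 rose in OCI-AML3 (log2 fold change 0.89, adjusted p = 0.0494), and the strand setting of the counting is not given in the sources used here. In MV4-11 AC220 INTS8 stood at 19.98, 12.94 and 10.53 CPM, the same replicate order as CCNE2. It did not pass the test there (log2 fold change -0.04, adjusted p = 0.904). The part of INTS8 in the CCNE2 values of either line was not tested. CDK2 stood at 211, 207 and 193 CPM and 202, 178 and 175 CPM in OCI-AML3 (-0.14, adjusted p = 0.246).

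Helicase activation was the step with the lowest median in MV4-11, -2.90, and its summed level went from 179.8 ± 8.98 to 23.1 ± 3.01 CPM. CDC45, which joins MCM2-7 and GINS in the active helicase, had the largest fall of all 52 genes. It stood at 38, 37.2 and 39.4 CPM under DMSO and 2.2, 2.61 and 1.64 CPM under AC220, 17.7-fold lower (log2 fold change -4.15, SE 0.135, adjusted p = 6.86e-21). The AC220 libraries held 18 to 29 counts of it. MCM10, which activates the assembled helicase, went from 42.5, 33.6 and 38.5 CPM to 2.89, 3.07 and 3.09 CPM (log2 fold change -3.66, SE 0.124).

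All 4 GINS subunits fell. GINS2 (-3.09), GINS4 (-2.72) and GINS1 (-2.51) fell more than GINS3, which changed least, from 16.6, 16.3 and 15.1 CPM to 6.84, 4.56 and 5.18 CPM (-1.52, SE 0.145). An exon of GSE1, which rose (0.30, adjusted p = 0.00987), lies on the other strand at the 3' end of GINS2, and its part was not tested. In OCI-AML3 CDC45 stood at 57.3, 54.2 and 61.2 CPM under DMSO and 63.1, 66.4 and 70.6 CPM under AC220, slightly higher in every AC220 library (log2 fold change 0.21, adjusted p = 0.145). GINS3 overlapped there, at 21.7, 18.3 and 20.5 CPM and 21.6, 21 and 22.7 CPM.

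All 9 genes of the polymerases fell in MV4-11, with a median of -1.61. POLE, the catalytic subunit of the leading-strand polymerase epsilon, fell from 34.2, 36.4 and 31.5 CPM to 6.99, 7.35 and 7.17 CPM (log2 fold change -2.25, SE 0.114, adjusted p = 2.08e-16), and its partner POLE2 by 2.13. Of polymerase delta, the catalytic POLD1 fell by 1.61 and the accessory POLD2 and POLD3 by 0.89 and 0.88. In polymerase alpha-primase, which lays primers, POLA1, POLA2 and PRIM1 fell by 1.83, 1.75 and 1.56.

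PRIM2, the large primase subunit, stood at 11.1, 9.11 and 10.9 CPM and 6.23, 8.66 and 7.54 CPM, close to each other but not overlapping (-0.48, adjusted p = 0.0162). Its call was lost without MV4-11 DMSO replicate 1 (adjusted p = 0.0627), DMSO replicate 3 (0.0527) or AC220 replicate 1 (0.0923). The count ratio of PRIM1 to PRIM2 went from 2.47 to 3.18 to 1.07 to 1.68 in MV4-11, against 2.5 to 3.4 and 2.93 to 3.74 in OCI-AML3. In OCI-AML3 POLE stood at 55.6, 47 and 51.2 CPM and 48.6, 43.9 and 50.2 CPM, and PRIM2 at 7, 7.9 and 10.1 CPM and 9.02, 9.72 and 8.91 CPM, both with overlap. Among the polymerase genes POLE2 had the largest value there (0.53, 95% interval 0.06 to 1.00, adjusted p = 0.131).

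The clamp PCNA, which tethers polymerases, fell by 1.61 in MV4-11, from 98.8 ± 6.83 to 32.3 ± 7.05 CPM. Of the 5 subunits of its loader, RFC3 changed most, from 45.8, 48.3 and 46.1 CPM to 7.67, 6.7 and 7.54 CPM (log2 fold change -2.67, SE 0.103, adjusted p = 3.00e-19). RFC4 changed least, from 55.2, 56.9 and 59.4 CPM to 41.5, 39.4 and 42.1 CPM (-0.48, adjusted p = 1.93e-05), and an exon of EIF4A2 lies on the other strand at its 3' end. EIF4A2 rose in MV4-11 (0.81, adjusted p = 5.70e-08), and its part in the RFC4 value was not tested. RFC2 (-1.34), RFC1 (-0.95) and RFC5 (-0.92) lay between.

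Within each library the count ratio of RFC3 to RFC4 was 0.777 to 0.849 in MV4-11 DMSO and 0.17 to 0.185 in MV4-11 AC220, and 0.944 to 1.08 and 0.881 to 1.03 in OCI-AML3 DMSO and AC220. The 2 subunits changed by unequal amounts in MV4-11. RFC3 stood at 50.8, 48.5 and 52.8 CPM and 54.6, 49.4 and 50.8 CPM in OCI-AML3, and RFC4 at 47, 51.4 and 51.4 CPM and 56.7, 48 and 57.6 CPM, both overlapping. PCNA was higher in every OCI-AML3 AC220 library (127, 131 and 162 CPM) than in the DMSO libraries (109, 101 and 116 CPM), at an adjusted p of 0.0919 (log2 fold change 0.37). It passed by DESeq2 (0.0474) and limma-voom (0.0335), but not with other scalings or the replicate block. On the deposited normalised values no member was called in OCI-AML3.

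Replication protein A, the trimer that covers single-stranded DNA, held subunits that changed by unequal amounts in MV4-11. RPA3, its smallest subunit, fell from 85.8, 80.6 and 77.4 CPM to 23.9, 18.2 and 19.5 CPM in MV4-11 (log2 fold change -1.98, SE 0.0882, adjusted p = 9.96e-18). RPA2 stood at 64.5, 71.1 and 61.1 CPM under DMSO and 65.6, 65.8 and 67 CPM under AC220 (0.01, 95% interval -0.16 to 0.19, adjusted p = 0.907). The RPA2 libraries overlapped. RPA1, the large subunit, fell by 0.87. The count ratio of RPA3 to RPA2 went from 1.13 to 1.33 to 0.277 to 0.365 in MV4-11.

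In OCI-AML3 that ratio was 1.32 to 1.44 under DMSO and 1.52 to 1.58 under AC220. RPA3 stood there at 89.3, 89.1 and 89.3 CPM and 100.5, 99.1 and 103 CPM, higher in every AC220 library without a call (adjusted p = 0.193). RPA2 stood at 67.4, 64.9 and 62.2 CPM and 64.3, 65.1 and 65.1 CPM, with overlap, and the difference between the lines under DMSO was 0.02 (95% interval -0.16 to 0.19).

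Okazaki fragments are trimmed by the flap nuclease FEN1 and sealed by DNA ligase 1 (LIG1). FEN1 fell from 118, 126 and 122 CPM to 21.6, 20.2 and 18.3 CPM in MV4-11 (log2 fold change -2.60, SE 0.077, adjusted p = 8.57e-22), and LIG1 from 69.1, 69.9 and 68.5 CPM to 14.3, 19.2 and 18 CPM (-2.02, SE 0.0983). In OCI-AML3 the pair leaned in opposite directions without a call. FEN1 stood at 189, 176 and 182 CPM and 201, 211 and 204 CPM (0.17, adjusted p = 0.124), and LIG1 at 54.2, 47.1 and 49.95 CPM and 46.3, 42.8 and 45.8 CPM (-0.17, adjusted p = 0.303). For both genes the 2 groups did not overlap.

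TIMELESS, TIPIN and CLSPN (claspin) stabilise stalled forks, and WDHD1 links polymerase alpha to the helicase. CLSPN fell from 95.7, 104 and 95.5 CPM to 15.3, 16.9 and 11.5 CPM in MV4-11 (log2 fold change -2.75, SE 0.0929, adjusted p = 1.47e-20). WDHD1 and TIMELESS fell by 2.44 and 1.77. TIPIN fell least, from 25.2, 24.8 and 27.9 CPM to 11.8, 11.1 and 8.81 CPM (-1.29, SE 0.126).

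TIPIN was also the member called in OCI-AML3, where it rose from 22.9, 19.8 and 21.1 CPM to 29, 28.1 and 35.4 CPM (log2 fold change 0.54, SE 0.116, adjusted p = 0.0129). Every AC220 library lay above the DMSO libraries. The call was lost on leaving out replicate 1 (adjusted p = 0.0759) or 2 (0.113) of the OCI-AML3 DMSO libraries or replicate 3 of the AC220 libraries (0.132), and on the deposited normalised values (0.130). Its partner TIMELESS leaned down there (-0.17, adjusted p = 0.245). CLSPN was level, at 166, 164 and 162 CPM and 164, 160.3 and 162 CPM.

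CHAF1A and CHAF1B are subunits of chromatin assembly factor 1, which deposits histones behind the fork. CHAF1B fell from 17.5, 14 and 16.3 CPM to 1.22, 1.96 and 1.45 CPM in MV4-11, 10.4-fold (log2 fold change -3.38, SE 0.181, adjusted p = 7.57e-16), on 16 to 21 counts in the AC220 libraries. CHAF1A fell from 108, 101 and 113 CPM to 38.1, 42.6 and 43 CPM (-1.38, SE 0.0766). An exon of UBXN6, which rose (0.57, adjusted p = 4.71e-06), lies on the other strand at the 3' end of CHAF1A, and its part was not tested. In all 8 members had such a neighbour within 500 bases, the others being RFC5, with WSB2 (0.25, adjusted p = 0.0596), and MCM2 and GINS4, each with a gene that was not analysed here. The count ratio of CHAF1B to CHAF1A went from 0.139 to 0.163 to 0.0319 to 0.0459. In OCI-AML3 CHAF1B stood at 20.4, 19 and 19.6 CPM and 20.6, 22.6 and 21.6 CPM, higher in every AC220 library, and CHAF1A at 124, 126 and 116 CPM and 119, 109 and 120.1 CPM, with overlap. Neither was called (adjusted p = 0.571 and 0.624).

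**Figure D4:**
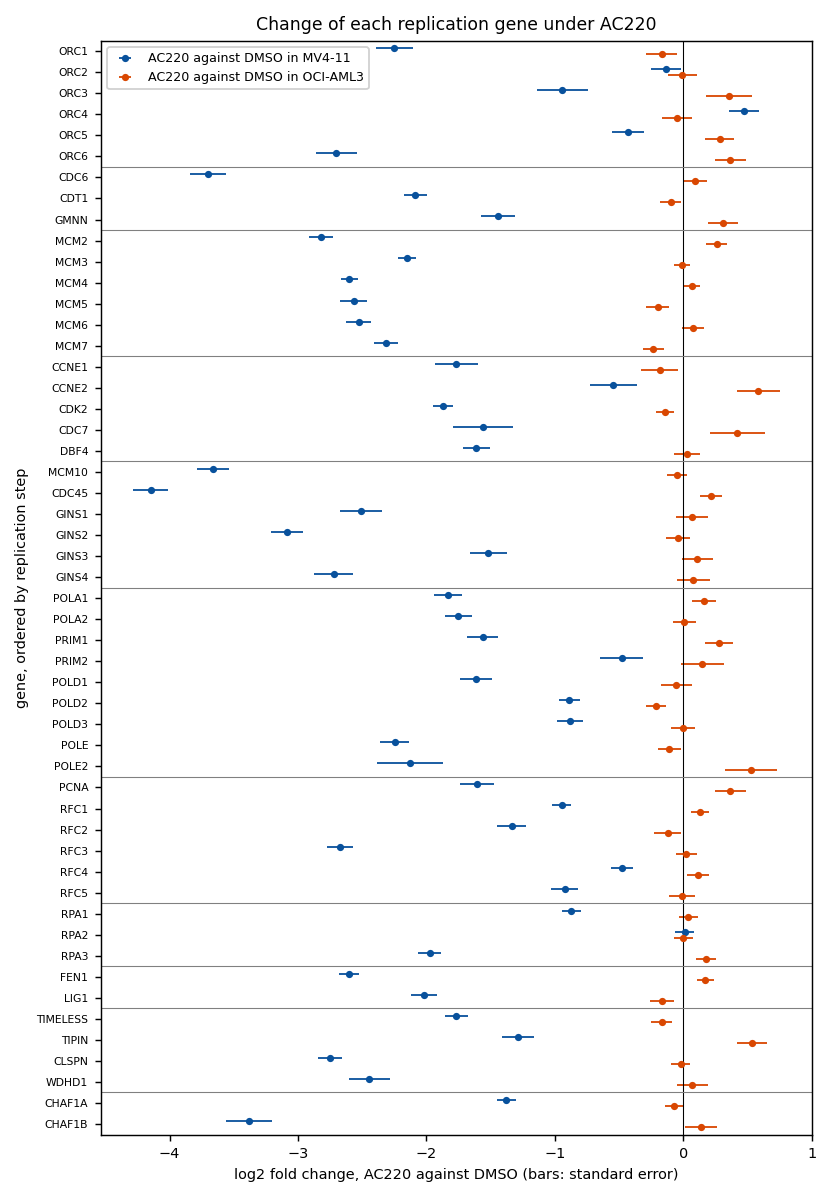
Log2 fold change under AC220 (x axis, bars are standard errors) of each of the 52 genes (rows, by step) in MV4-11 (blue) and OCI-AML3 (orange). In MV4-11 the values run from -4.15 for CDC45 to 0.47 for ORC4, and in OCI-AML3 from -0.23 for MCM7 to 0.58 for CCNE2.

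Across the steps the median log2 fold change in MV4-11 ran from -2.90 for helicase activation, -2.55 for MCM2-7, -2.38 for chromatin assembly and -2.31 for fragment maturation to -1.14 for clamp and loader, -0.87 for replication protein A and -0.69 for the origin recognition complex. A fall of at least 4-fold was called for 23 of the 52, against 3.62% of tested genes. These 23 included all 6 MCM2-7 genes and 5 of the 6 genes of helicase activation, but no subunit of replication protein A and no kinase or cyclin. RPA3 missed that limit narrowly, at 3.93-fold, and CDK2 fell 3.66-fold. Over the 52 genes the log2 level in MV4-11 DMSO and the log2 fold change had a Pearson correlation of -0.21 (Spearman -0.26), a description over genes that share the same libraries. The spread between replicates was larger in MV4-11 AC220 (median coefficient of variation 13.7%) than in the other groups (5.38% to 6.07%). POLE2 had the largest value there (47.5%), on 24, 33 and 13 counts. The part of low counts in this spread was not tested.

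Under DMSO 24 members were lower and 8 higher in MV4-11 than in OCI-AML3, against 33.4% and 32.1% of tested genes, and the median log2 fold change was -0.17 against 0.01 over all tested genes. MCM10 differed most, at 42.5, 33.6 and 38.5 CPM in MV4-11 and 148, 130.2 and 129 CPM in OCI-AML3 (log2 fold change -1.83, SE 0.082, adjusted p = 7.11e-18), and its level in OCI-AML3 AC220 was 131, 132 and 129 CPM. MCM7 followed (-1.08), at 333 ± 27.8 against 706 ± 65.2 CPM. The largest difference in the other direction was that of GINS4 (0.77), at 26.7 ± 0.768 against 15.7 ± 0.865 CPM, followed by DBF4 (0.58), POLD1 (0.52) and LIG1 (0.46).

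Under AC220 49 members were lower and 1 higher in MV4-11 than in OCI-AML3, against 39.5% and 36.7% of tested genes, with a median of -1.92. MCM10 again differed most (-5.44, 43.4-fold), then CDC45 (-4.95) and CDC6 (-4.33). PRIM2 (-0.31, adjusted p = 0.103) and RPA2 (0.03, adjusted p = 0.738) were not called. The call of ORC4 as higher (0.26, adjusted p = 0.0492) was lost without any 1 of MV4-11 DMSO replicates 1, 2 and 3, MV4-11 AC220 replicate 3, OCI-AML3 DMSO replicates 1 and 3 and OCI-AML3 AC220 replicates 1 and 3 (adjusted p of 0.0533 to 0.296). These line contrasts share libraries with the AC220 contrasts and are not independent of them.

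**Figure D5:**
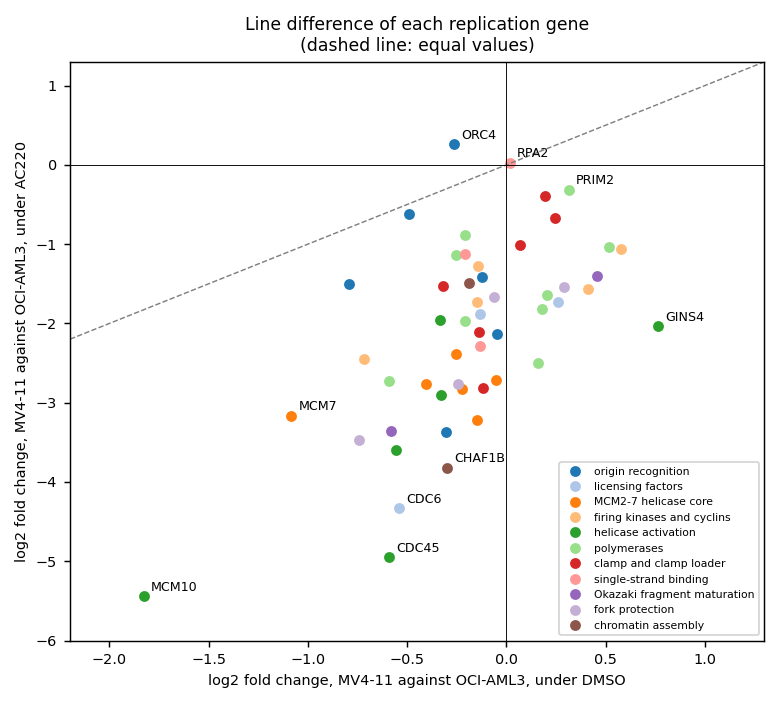
Log2 fold change of MV4-11 against OCI-AML3 for each of the 52 genes, under DMSO (x axis) and under AC220 (y axis), coloured by step, with a dashed line where both are equal. Nearly all points lie below the line, MCM10 is lowest on both axes, and ORC4 and RPA2 lie at or above it.

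A further 39 genes of replication, its nucleotide supply and its control were measured and tested. Of these 31 fell and 2 rose in MV4-11, against 26.9% and 31.5% of tested genes, with a median of -1.25. First by p were RRM2 (-3.80) and RRM1 (-1.93), the subunits of ribonucleotide reductase, the topoisomerase TOP2A (-2.63) and DTL (-3.22), which targets CDT1 for destruction. POLD4, the fourth subunit of polymerase delta, rose from 63.4, 62.1 and 60.1 CPM to 126, 156 and 145 CPM (log2 fold change 1.20, adjusted p = 1.10e-12), while POLD1, POLD2 and POLD3 fell. CHTF8, of the alternative clamp loader, rose by 0.54, and its partners CHTF18 and DSCC1 fell by 2.66 and 3.11. In OCI-AML3 4 of the 39 rose and 0 fell by edgeR, against 3.44% and 0.508% of tested genes (median -0.02). The 4 were DUT (0.32, adjusted p = 0.0174), MCMBP (0.47, adjusted p = 0.0211), RNASEH2B (0.48, adjusted p = 0.0286) and TONSL (0.53, adjusted p = 0.0445). How far these calls rest on single libraries is not given here.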

How the data were processed

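RNA of 12 libraries, 3 for each of 4 groups, was read from the 3' end with the Lexogen QuantSeq kit, per the labels' protocols. Raw counts in 19505 rows, named by gene symbol, were deposited by the authors, and 2 names, neither of them a member, occurred on more than 1 row. They also deposited normalised log2 values of 11075 genes, used here as an alternative. The submitters' processing notes name cutadapt 1.9.1, HISAT2 2.0.4, Subread 2.0.0, featureCounts, limma 3.42.2 and the build hg19. The annotation and strand setting are not given in the sources used here.

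Counts were filtered with filterByExpr (12392 genes kept of 19504), scaled by TMM and fitted over all 12 libraries (8 residual degrees of freedom) with the quasi-likelihood test of edgeR 4.0.16 in R 4.3.3. P-values were Benjamini-Hochberg adjusted over all tested genes, with calls under 0.05. The 95% intervals use the t distribution on 8 degrees of freedom. The row without a symbol was left out. Totals limit precision for genes of few counts. Alternatives were other scalings, filters and thresholds, DESeq2 1.42.0, limma-voom 3.58.1, the deposited values, a replicate block and leaving out each library.

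Members and lists were chosen with earlier results of these data known. Library values are given for the largest and smallest change of each step in MV4-11, members called against their step, members called in OCI-AML3 and the largest line difference under DMSO. A few others, such as PCNA, were added after their values were seen. Of the 39 other genes, the 4 with the smallest adjusted p and those called against most are named, and those called in OCI-AML3 and the partners of CHTF8 were added after their values were seen.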

Additional observations from a re-analysis of the deposited data

Results flagged for a closer look

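A total of 50 members were singled out because their response to AC220 differed between MV4-11 and OCI-AML3 by a test of the difference itself (edgeR's quasi-likelihood test, Benjamini-Hochberg adjusted p under 0.05, 3 libraries per group). The values are log2 differences, the AC220 contrast of MV4-11 minus that of OCI-AML3, and all but that of ORC4 lie below 0. For the origin recognition complex the differences were -2.08 for ORC1, -1.30 for ORC3, 0.52 for ORC4, -0.71 for ORC5 and -3.07 for ORC6. Licensing factors gave -3.79 for CDC6, -1.99 for CDT1 and -1.75 for GMNN. The helicase ring gave -3.08 for MCM2, -2.13 for MCM3, -2.67 for MCM4, -2.36 for MCM5, -2.60 for MCM6 and -2.08 for MCM7. Kinases and cyclins had -1.58 for CCNE1, -1.13 for CCNE2, -1.73 for CDK2, -1.98 for CDC7 and -1.64 for DBF4. In helicase activation the values were -3.61 for MCM10, -4.36 for CDC45, -2.58 for GINS1, -3.05 for GINS2, -1.63 for GINS3 and -2.80 for GINS4. Among the polymerases they were -1.99 for POLA1, -1.76 for POLA2, -1.84 for PRIM1, -0.63 for PRIM2, -1.56 for POLD1, -0.68 for POLD2, -0.88 for POLD3, -2.14 for POLE and -2.65 for POLE2. The clamp and its loader had -1.97 for PCNA, -1.08 for RFC1, -1.21 for RFC2, -2.70 for RFC3, -0.59 for RFC4 and -0.91 for RFC5. Replication protein A had -0.91 for RPA1 and -2.15 for RPA3. Fragment maturation gave -2.77 for FEN1 and -1.85 for LIG1. At fork protection stood -1.60 for TIMELESS, -1.83 for TIPIN, -2.73 for CLSPN and -2.52 for WDHD1. Chromatin assembly gave -1.30 for CHAF1A and -3.52 for CHAF1B. Adjusted p ran from 8.67e-20 (MCM4) to 0.0315 (PRIM2). The call on PRIM2 was lost by DESeq2 (adjusted p = 0.0501) and without MV4-11 DMSO replicate 1 (0.0742), MV4-11 DMSO replicate 3 (0.0675), MV4-11 AC220 replicate 1 (0.0845), and, in OCI-AML3, replicate 1 (0.0958) or 2 (0.0720) of the DMSO libraries or replicate 2 of the AC220 libraries (0.0692). The call on ORC4 was lost without MV4-11 AC220 replicate 3 (0.0549).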

How the results depend on the processing

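In MV4-11 the count of 49 lower and 1 higher members stayed within 1.5 times under every alternative run, and no called value reversed. Leaving out each library gave 47 to 49 lower and 1 to 1 higher members in MV4-11, 0 to 2 lower and 0 to 6 higher in OCI-AML3, 48 to 49 lower and 0 to 1 higher for the difference of responses, 16 to 25 lower and 6 to 10 higher between the lines under DMSO, and 49 to 49 lower and 0 to 1 higher under AC220. In OCI-AML3 the higher count of 1 became 0 at an adjusted p of 0.01 and on the deposited values, 5 with no filter on low counts, 3 by DESeq2, 4 by limma-voom and 4 in the libraries of the comparison alone. The lower count of 0 became 1 with no filter. For the difference of responses the higher count of 1 became 0 at 0.01. Between the lines under DMSO the higher count of 8 became 5 at 0.01 and 5 on the deposited values, and the lower count of 24 became 14 at 0.01. Under AC220 the higher count of 1, ORC4, became 0 at 0.01, with total counts only, with no filter, with the replicate block, by limma-voom and in the libraries of the comparison alone. The cause of these moves was not tested. With the replicate block the counts were 49 lower and 1 higher in MV4-11, 0 and 1 in OCI-AML3, 49 and 1 for the difference, 23 and 8 between the lines under DMSO and 49 and 0 under AC220. By the labels, libraries of the same number share only that number. Their deviations correlated at -0.2, -0.0719 and -0.133 in MV4-11 and at 0.143, 0.0664 and 0.285 in OCI-AML3, so that not every pair passed 0.1. In MV4-11 no library correlated best with its own number, whereas in OCI-AML3 each AC220 library did, as a hint from the data. Scaling by total counts moved the median difference of responses over all genes from 0.03 to -0.08 and that over the members from -1.91 to -2.02. In MV4-11 it moved the share of higher calls among all calls over all genes from 53.9% to 44.5%. Of 110 step medians compared under other scalings, 13 moved by at least the SD between replicate libraries. Depth limits genes such as CHAF1B, at 16 counts in its lowest library.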
